A study of Homo sapiens with 12 samples.

Results

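JeKo-1 is an established human mantle cell lymphoma line, and the experiment described here compared JeKo-1 cells carrying a short hairpin RNA against cyclin D1 (shCycD1) with JeKo-1 cells carrying a control hairpin (shCtrl). It holds 6 of the 12 RNA-seq libraries of the study, 3 with shCycD1 and 3 with shCtrl, taken by their sample titles; the other 6 libraries are the same comparison in the mantle cell lymphoma line Granta-519. Both JeKo-1 groups were transduced with lentivirus and selected with puromycin, so the vector and the drug are common to them, and no untransduced cells were part of the comparison. The sources used here do not give the hairpin sequences, how many hairpins were used or the time between infection and harvest. The study's design text calls the 3 libraries of each group biological replicates; they come from 1 cell line, and nothing in the labels says how the cultures were kept apart, so the p-values below measure the spread between these libraries.

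Cyclin D1 is the regulatory partner of the kinases CDK4 and CDK6. The complex phosphorylates the retinoblastoma protein RB, which releases E2F transcription factors, and E2F in turn drives the genes of S-phase entry; the genes of mitosis are switched on later by the B-MYB and FOXM1 complexes and are held off in resting cells by the DREAM complex. Mantle cell lymphoma is defined by a translocation that places CCND1, the cyclin D1 gene, beside the immunoglobulin heavy chain locus, so that a B cell, which normally relies on cyclins D2 and D3, makes cyclin D1 throughout.

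Expression is given as RPKM, a read density scaled to transcript length and library size, recovered from the deposited log table, which was read as natural log; no header names the base, and read as log2 the changes are smaller. A log2 change is the difference between group means of log2(RPKM + 0.5), shCycD1 minus shCtrl, followed by its standard error, and it understates the change of genes near 0. A gene was called higher or lower at a limma adjusted p under 0.05 over all 11866 JeKo-1 genes that reached 1 RPKM in at least 3 of the 6 libraries. Depth per library is unknown because the table holds no counts. The 6 libraries correlated at r = 0.968 to 0.974 within groups and 0.881 to 0.898 between them. The first principal component, with 70.1% of the variance, separated the groups. All 9 defining markers of B cells and mantle cell lymphoma were at 1 RPKM or more in every library, among them PAX5, CD79A and SOX11. Symbols of short RNAs held 25.1 to 31.6% of the summed RPKM in shCtrl and 17.8 to 22.1% in shCycD1. RPKM divides by length, and weighted by the length of the longest annotated transcript, where one was found, these symbols held 0.96 to 1.29% and 0.63 to 0.82%, a small part of the total in either group.

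Silencing was accompanied by a change across much of the transcriptome. Of the 11866 genes, 4357 (36.7%) were called higher and 3303 (27.8%) lower in shCycD1, with 1087 and 828 of them at least doubled or halved (426 and 486 with the table read as log2, and 592 and 793 with a correction for GC content). Read as log2, the median of the mitosis list below would be -2.13 in place of -2.95, and that of the interferon list 1.18 in place of 1.47. The groups of 3 libraries did not overlap for 8260 genes (69.6%). The median log2 change of all tested genes was 0.085. Scaling each library to the ERCC RNAs, an artificial mixture spiked into each sample, moved that median by more than 0.1, to -0.029, and left 1688 genes higher and 1734 lower. The spike-in factors differed widely between libraries of 1 group (-0.339 to 0.223 in shCtrl on the log2 scale), and on the same scale with the replicate number as a block 4031 genes were higher and 4418 lower. Where a JeKo-1 call named below was lost with spike-in scaling, the log2 change itself moved little. The Granta-519 changes given below moved more.

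The lists with the lowest and the highest medians were those of cell division and of the interferon response. Every tested gene but 1 of the mitosis list fell, with a median log2 change of -2.95 over 97 genes, and 57 of 58 replication genes fell, with a median of -2.21. Over the 63 tested genes of the type I interferon response the median was 1.47, and 53 rose. Between these ends lay lists in which both directions were common, such as the targets of p53, with 8 of 26 higher and 9 lower, beside 36.7% and 27.8% of all genes.

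**Figure D1:**
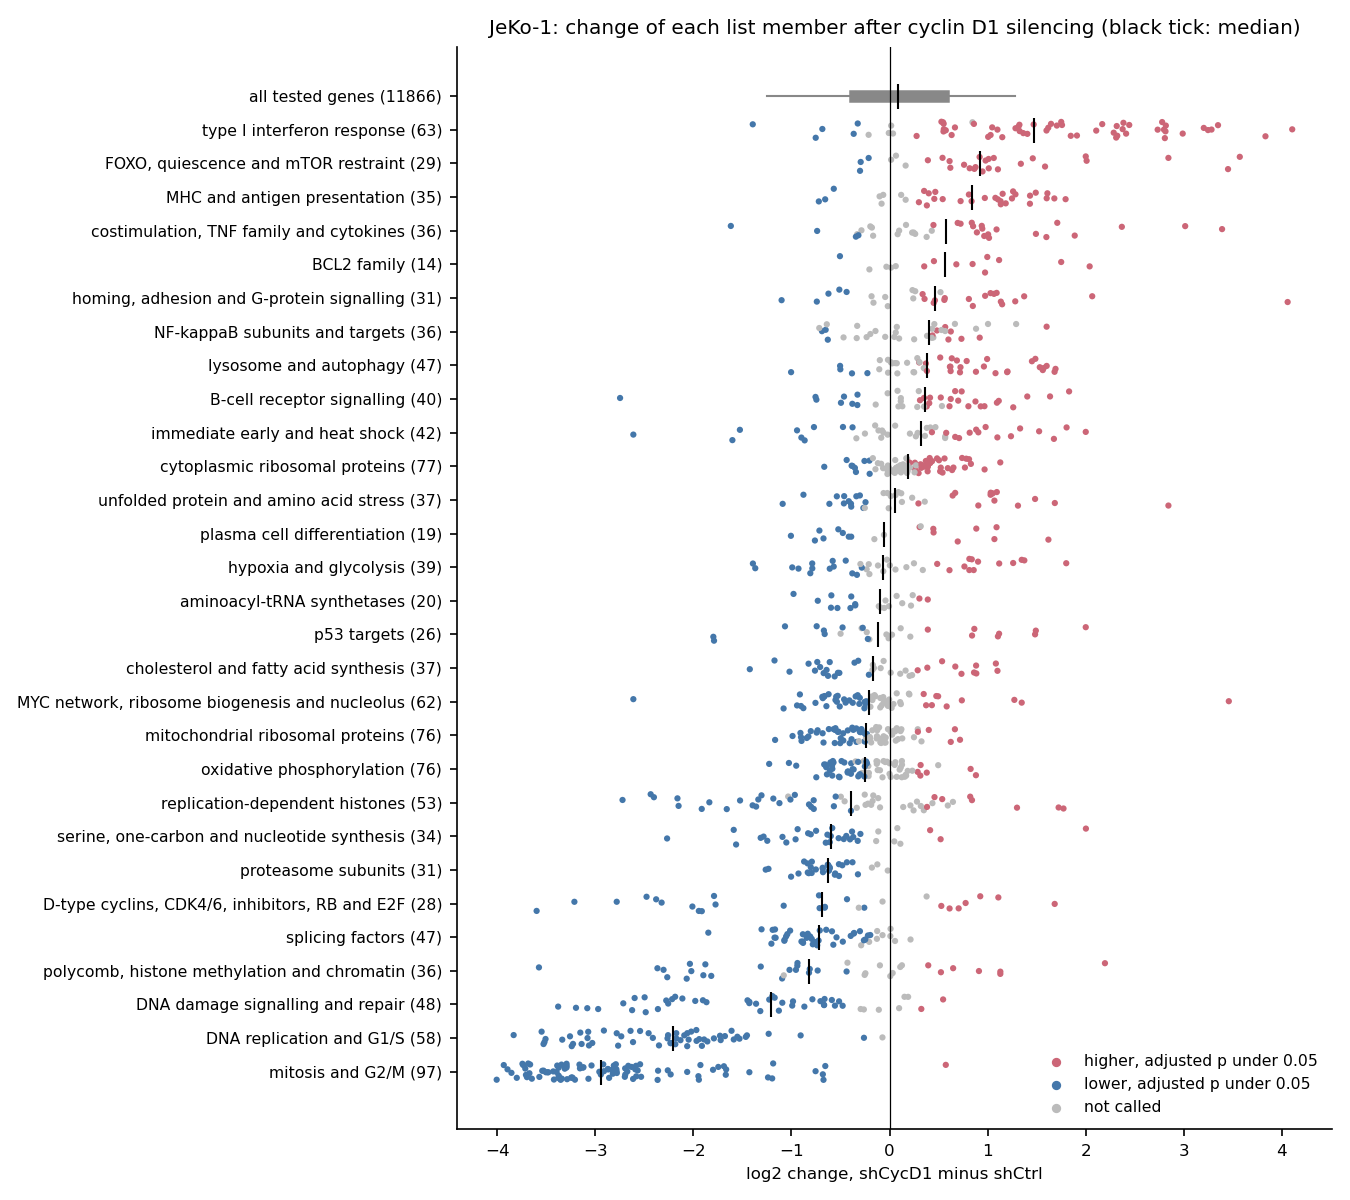
Log2 change (x axis, shCycD1 minus shCtrl) of every tested member of each gene list in JeKo-1; each point is a gene, coloured by its call, the number of genes is in parentheses, and the black tick is the list's median. The top row shows all 11866 tested genes as the median, the middle 50% (thick bar) and the middle 90% (thin line). Interferon genes lie to the right, with a median of 1.47, and mitosis genes to the left, with a median of -2.95.

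CCND1 itself stood at 395, 330 and 315 RPKM in the shCtrl libraries and at 65.4, 64.8 and 67.4 RPKM in shCycD1. The groups were far apart, and the shCycD1 libraries lay within 3 RPKM of each other. CCND1 fell by 2.38 ± 0.09 on the log2 scale (adjusted p = 1.96e-06), which is 5.21-fold, and the remaining level was still higher per length than that of CCND3 in any library. CCND3, the cyclin of normal lymphocytes, measured 23.6, 25.1 and 19.7 RPKM in shCtrl and 30.4, 35.9 and 32.8 RPKM in shCycD1. Its log2 change was 0.53 ± 0.11, and the call was lost with spike-in scaling (0.41, adjusted p = 0.358) and with a correction for GC content (0.20, adjusted p = 0.132). CCND2 was at 0.0734 to 0.180 RPKM in shCtrl and 0.744 to 0.894 RPKM in shCycD1, below the minimum for testing in all 6 libraries.

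CDK4, the catalytic partner, was among the more abundant cell-cycle transcripts, with 595, 561 and 548 RPKM in shCtrl and 404, 443 and 414 RPKM in shCycD1. Its log2 change of -0.43 ± 0.07 was small beside that of CCND1, and it was not called after quantile normalization (-0.19, adjusted p = 0.051) or spike-in scaling (-0.56, adjusted p = 0.26). CDK6 was listed at 0 or below 0.003 RPKM in every library of both groups. Of the D-type cyclin, CDK, inhibitor, RB and E2F list, 28 of 31 genes were tested. Of these, 7 rose and 18 fell (3 and 16 with spike-in scaling), beside 36.7% and 27.8% of all genes.

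The kinase inhibitors did not move together. CDKN1A, encoding the p53-induced inhibitor p21, measured 15.1, 12.8 and 10.9 RPKM in shCtrl and 3.67, 2.79 and 3.70 RPKM in shCycD1, and fell by 1.79 ± 0.15. CDKN1C, encoding p57, went the other way, from 6.27, 5.48 and 5.27 RPKM to 21.0, 13.5 and 25.3 RPKM, a rise of 1.69 ± 0.21. CDKN1B, encoding p27, had a log2 change of 0.61 ± 0.14, which was not called with spike-in scaling (0.49, adjusted p = 0.247).

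RB1 fell by 0.72 ± 0.15, with 58.0, 80.2 and 69.6 RPKM in shCtrl against 35.9, 48.7 and 40.9 RPKM in shCycD1. With GC correction its log2 change was -0.425 and kept the call. Its relative RBL1 (p107), itself an E2F target, fell by 2.48 ± 0.12, while RBL2 (p130), the pocket protein of resting cells, rose by 0.78 ± 0.10. The E2F factors divided in the same manner. E2F1 measured 62.1, 38.5 and 56.6 RPKM in shCtrl and 10.4 to 14.9 RPKM in shCycD1, and fell by 1.95 ± 0.20. E2F2 fell by 3.21 ± 0.18, and E2F8, from 20.3, 14.3 and 18.3 RPKM to 0.940, 0.971 and 1.03 RPKM, fell by 3.60 ± 0.14. E2F4, which binds with p130 in resting cells, rose by 0.71 ± 0.09, and the dimerization partner TFDP2 rose by 1.11 ± 0.11. RBL2 and E2F4 were singled out after their values were seen. The 5 genes of the cyclin E step all fell, with a median of -2.01, among them CDC25A, the phosphatase that activates CDK2, at -2.78 ± 0.10, and CKS1B, a CDK-binding subunit, at -2.32 ± 0.09.

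**Figure D2:**
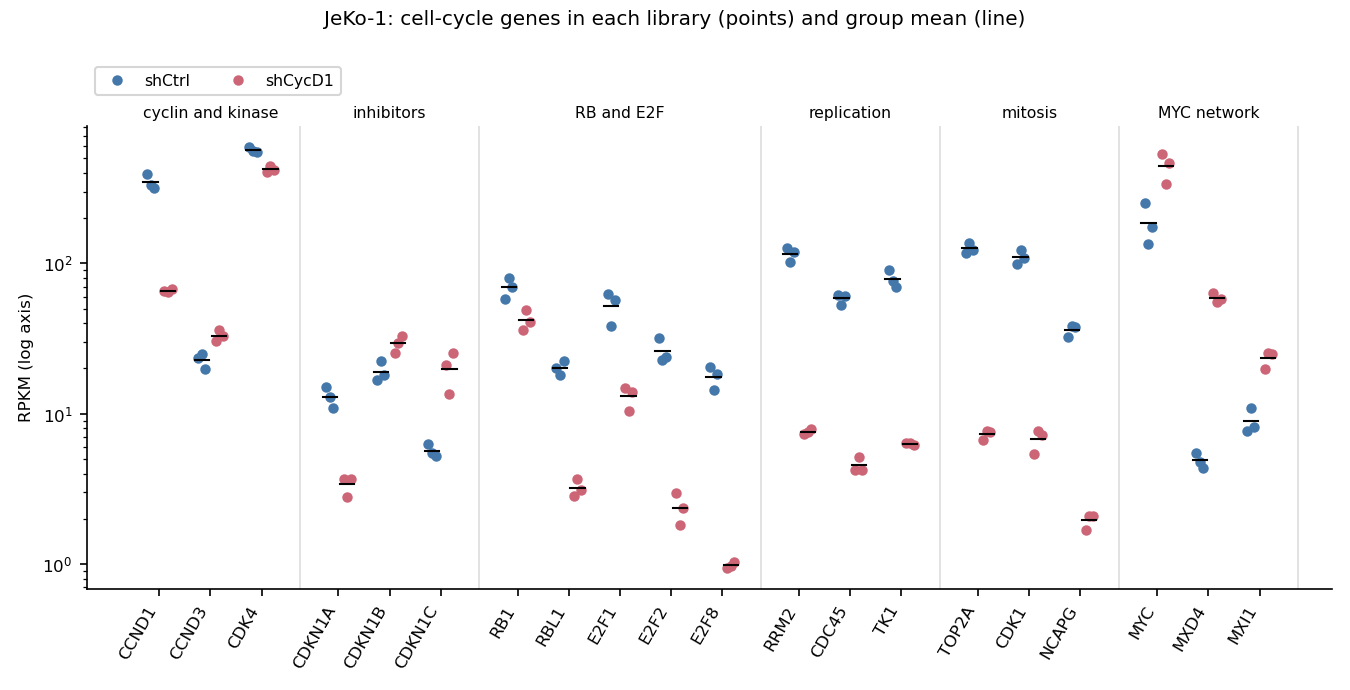
RPKM on a log axis (y) for genes of the cell cycle and the MYC network in JeKo-1 (x); each point is a library, 3 per group, and the line is the group mean. CCND1 lies at 315 to 395 RPKM in shCtrl and 64.8 to 67.4 RPKM in shCycD1, and the groups do not overlap for any gene shown.

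Genes of DNA replication fell at each step of the process. The list covers licensing of origins, the CMG helicase, polymerases, clamp loading, fork protection, nucleotide supply and the copying of chromatin. Within it, medians ran from -1.96 over the 10 polymerase subunits to -3.03 over the 6 genes of nucleotide supply; the 8 licensing genes had a median of -2.76 and the 12 helicase genes -2.25. The 1 gene not called was POLD2, a small subunit of polymerase delta, with overlapping groups at 161 to 197 RPKM in shCtrl and 167 to 172 RPKM in shCycD1. Fewer cells in S phase and less of these RNAs per cell cannot be told apart in bulk RNA.

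RRM2, the small subunit of ribonucleotide reductase, which makes the deoxyribonucleotides for replication, had the largest fall of the list. It measured 126, 102 and 119 RPKM in shCtrl and 7.36, 7.52 and 7.90 RPKM in shCycD1, groups that lay far apart, and it fell by 3.83 ± 0.10 (adjusted p = 6.18e-07). CDC45, a core part of the replicative helicase, went from 61.7, 52.9 and 60.9 RPKM to 4.24, 5.15 and 4.24 RPKM. TK1, the S-phase thymidine kinase, went from 90.8, 75.9 and 69.1 RPKM to 6.36, 6.37 and 6.19 RPKM. MCM10, TYMS and CDC6 followed with log2 changes of -3.52 ± 0.13, -3.51 ± 0.08 and -3.34 ± 0.12. PCNA, the sliding clamp, and MCM7, a helicase subunit, were more abundant: PCNA stood at 548, 442 and 528 RPKM against 56.8, 58.1 and 62.5 RPKM, and MCM7 at 481, 426 and 453 RPKM against 96.5, 95.8 and 95.1 RPKM.

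The promoters of the 3 largest falls of the replication list and of the mitosis list are shown because their genes moved together and because E2F and DREAM-type complexes are known for short recognition motifs. Each runs from 250 bases before to 50 bases after the annotated start, on the gene's strand, from RefSeq on GRCh38.p14. Capitals mark an E2F motif (TTTCCCGC, TTTCGCGC, TTTGCCGC or TTTGGCGC), the cell cycle homology region or CHR (TTTGAA or TTCGAA) and the CCAAT box bound by NF-Y (CCAAT), each searched on both strands. The replication promoters are RRM2 at chr2:10122489-10122788 (plus strand), CDC45 at chr22:19479670-19479969 (plus strand) and TK1 at chr17:78187155-78187454 (minus strand).
RRM2: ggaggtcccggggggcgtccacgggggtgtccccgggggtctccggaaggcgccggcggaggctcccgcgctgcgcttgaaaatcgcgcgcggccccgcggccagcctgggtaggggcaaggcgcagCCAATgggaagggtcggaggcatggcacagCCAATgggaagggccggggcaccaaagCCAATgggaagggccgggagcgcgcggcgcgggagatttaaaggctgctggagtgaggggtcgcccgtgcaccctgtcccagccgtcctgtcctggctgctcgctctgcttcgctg
CDC45: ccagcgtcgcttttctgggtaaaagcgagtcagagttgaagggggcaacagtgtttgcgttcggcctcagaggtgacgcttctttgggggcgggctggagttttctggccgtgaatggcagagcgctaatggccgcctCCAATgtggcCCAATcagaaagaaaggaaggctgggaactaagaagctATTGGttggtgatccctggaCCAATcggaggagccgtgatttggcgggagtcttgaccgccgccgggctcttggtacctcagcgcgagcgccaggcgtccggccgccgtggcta
TK1: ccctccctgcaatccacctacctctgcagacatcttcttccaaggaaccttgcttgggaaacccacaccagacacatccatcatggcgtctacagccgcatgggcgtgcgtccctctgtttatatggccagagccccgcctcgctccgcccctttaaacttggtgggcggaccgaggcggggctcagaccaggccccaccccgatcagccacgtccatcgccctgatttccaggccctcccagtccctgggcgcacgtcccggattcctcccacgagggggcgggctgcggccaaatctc
RRM2 held 3 CCAAT boxes and CDC45 held 4; none of the motifs was found in the TK1 window, which says only that these letters are not in it.

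Mitotic genes had the lowest median of the lists, and all of their roles shared in it. Medians were -2.79 for the 13 genes of the cyclin B kinase and its control, -3.19 for the 12 mitotic kinases and checkpoint genes, -2.79 for the 25 centromere and kinetochore genes, -3.12 for the 13 kinesins, -3.16 for the 11 cytokinesis genes and -3.37 for the 11 spindle genes. The list's 1 exception was FZR1, encoding CDH1, which holds the anaphase-promoting complex active in G1. FZR1 stood at 17.8, 16.2 and 14.4 RPKM in shCtrl and 24.3, 23.5 and 24.7 RPKM in shCycD1, a log2 change of 0.57 ± 0.09. That call was lost with spike-in scaling (0.45, adjusted p = 0.288) and GC correction (0.01, adjusted p = 0.894).

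TOP2A, the topoisomerase that untangles sister chromosomes, had the largest fall of all genes eligible to be named. It measured 116, 137 and 124 RPKM in shCtrl and 6.72, 7.68 and 7.58 RPKM in shCycD1, and fell by 4.01 ± 0.09, or 16.1-fold. CDK1, the mitotic kinase, went from 98.2, 122 and 108 RPKM to 5.37, 7.63 and 7.24 RPKM. NCAPG, a condensin subunit, went from 32.2, 38.0 and 37.9 RPKM to 1.69, 2.09 and 2.08 RPKM. In each of these genes the lowest control lay far above the highest shCycD1 library. MKI67, the proliferation antigen Ki-67, varied more among the controls, at 37.5, 30.1 and 60.4 RPKM, and stood at 2.02, 2.66 and 2.78 RPKM in shCycD1, and fell by 3.80 ± 0.25. AURKB, PBK, NUF2, BIRC5, DLGAP5, MELK, CCNA2 and PLK1 fell by 3.67 to 3.86 on the log2 scale. Outside the mitosis list, FAM111B, a protease, fell by 3.99 ± 0.15 and KIAA0101, the PCNA-associated factor, by 3.68 ± 0.12.

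The promoters of the mitosis genes, with the same marking, are TOP2A at chr17:40417847-40418146 (minus strand), CDK1 at chr10:60778081-60778380 (plus strand) and NCAPG at chr4:17810729-17811028 (plus strand).
TOP2A: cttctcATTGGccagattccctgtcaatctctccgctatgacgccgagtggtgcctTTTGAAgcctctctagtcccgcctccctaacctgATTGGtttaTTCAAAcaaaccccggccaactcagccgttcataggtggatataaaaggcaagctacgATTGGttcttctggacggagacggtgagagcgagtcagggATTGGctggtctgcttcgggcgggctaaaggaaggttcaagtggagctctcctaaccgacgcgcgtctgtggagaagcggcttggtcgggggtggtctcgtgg
CDK1: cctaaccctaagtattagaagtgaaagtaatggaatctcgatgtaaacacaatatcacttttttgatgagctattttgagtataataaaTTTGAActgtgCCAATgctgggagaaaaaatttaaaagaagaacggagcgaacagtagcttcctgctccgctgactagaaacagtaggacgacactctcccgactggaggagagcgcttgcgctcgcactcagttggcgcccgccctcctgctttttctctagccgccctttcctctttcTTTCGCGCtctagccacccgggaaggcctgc
NCAPG: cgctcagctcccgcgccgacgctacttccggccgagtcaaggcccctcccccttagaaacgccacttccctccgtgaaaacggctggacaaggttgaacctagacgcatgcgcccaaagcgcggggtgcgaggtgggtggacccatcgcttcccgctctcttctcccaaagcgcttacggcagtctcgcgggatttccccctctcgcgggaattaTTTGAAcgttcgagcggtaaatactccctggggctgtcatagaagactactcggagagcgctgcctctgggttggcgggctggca
All of them held a CHR motif. TOP2A held 2 CHR motifs and 4 CCAAT boxes, CDK1 held 1 of each together with 1 E2F motif, and NCAPG held 1 CHR motif.

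Over all tested genes with a promoter in the RefSeq table, 8445 of 11866, the shares with the E2F, CHR and CCAAT motifs were highest among the genes that fell most. The E2F motif was in 23.1% of the 182 promoters of genes with a log2 change of -2 or lower, in 11.1% of the 414 between -2 and -1, in 5.0% of the 2960 not called and in 2.9% of the 68 of genes that rose by 2 or more. CHR was in 41.2%, 17.4%, 10.7% and 7.4% of the same sets, and CCAAT in 61.5%, 42.0%, 36.8% and 33.8%. The lists differed by motif: E2F was in 44.9% of the 49 replication promoters and 7.7% of the 78 mitosis promoters, while CHR was in 8.2% and 69.2%. Among all 27305 promoters of the same length, the shares were 3.3% for E2F, 16.6% for CHR and 35.7% for CCAAT. A match is a description of the letters and not evidence of binding.

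**Figure D3:**
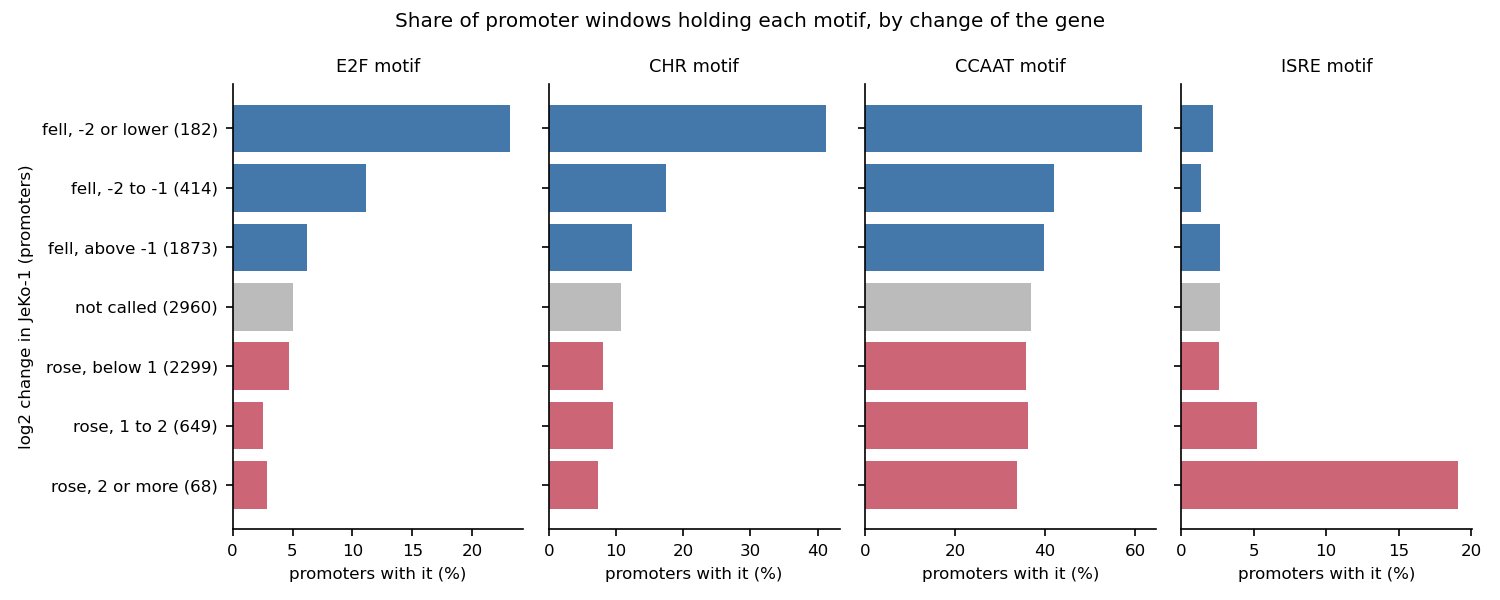
Share of promoter windows (x axis, percent) that hold each of 4 motifs, by the log2 change of the gene in JeKo-1 (y axis, number of promoters in parentheses). E2F, CHR and CCAAT shares are highest among the genes with a change of -2 or lower (23.1%, 41.2% and 61.5%), and the ISRE share is highest among genes that rose by 2 or more (19.1%).

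Genes of DNA damage signalling and repair also fell, 40 of 48 beside 27.8% of all genes, with a median of -1.21. Homologous recombination, which acts in S and G2 phase, had a median of -2.05 over 18 genes, and the 9 Fanconi anaemia genes all fell, with a median of -1.20. EXO1, an exonuclease, went from 47.1, 44.5 and 57.5 RPKM to 4.27, 3.96 and 4.66 RPKM, and fell by 3.38 ± 0.12. FANCI, of the Fanconi complex, fell by 2.63 ± 0.08 and CHEK1, the S-phase checkpoint kinase, by 3.20 ± 0.09. ATM, the kinase that responds to double-strand breaks, moved against the list, at 13.7, 16.2 and 19.0 RPKM in shCtrl and 23.5, 24.6 and 23.2 RPKM in shCycD1; its log2 change of 0.55 ± 0.12 was not called with spike-in scaling (0.43, adjusted p = 0.321).

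Chromatin genes were lower more often than higher. Of the 36 tested genes of the polycomb, histone methylation and chromatin list, 20 fell and 7 rose (20 and 4 with spike-in scaling). Of all genes, 27.8% fell and 36.7% rose. HMGB2, a chromatin protein abundant in dividing cells, went from 772, 726 and 767 RPKM to 58.7, 67.2 and 62.9 RPKM, and fell by 3.58 ± 0.07. The lamin LMNB1 fell by 2.37 ± 0.07, the lamin B receptor LBR by 2.27 ± 0.13 and the histone variant H2AFZ by 2.07 ± 0.07. The demethylase KDM5B rose from 3.23, 3.55 and 3.38 RPKM to 16.2, 17.9 and 17.9 RPKM, by 2.20 ± 0.09.

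Replication-dependent histones were split, with 24 of 53 lower and 8 higher, beside 27.8% and 36.7% of all genes. Spike-in scaling left 22 and 4, and a minimum mean of 5 RPKM left 8 lower and 7 higher of 28. HIST1H3C fell from 5.38, 4.21 and 5.64 RPKM to 0.297, 1.06 and 0.365 RPKM, while HIST1H3H rose from 14.2, 13.2 and 13.1 RPKM to 50.6, 41.1 and 45.7 RPKM. HIST1H2AI rose by 1.77 ± 0.18. These transcripts normally end without a poly(A) tail, the libraries were made with an mRNA kit, and histone genes are near-identical copies among which reads can be split, so their levels are uncertain. The number of higher histones was between 5 and 10 when single libraries were left out, and was 5 without shCycD1 replicate 1.

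Several groups tied to arrest and survival were examined beside the loss of cell-cycle genes. The p53 targets had no common direction, with 8 of 26 higher and 9 lower, beside 36.7% and 27.8% of all genes. CDKN1A, MDM2 and DDB2 were among the 9 that fell, and BTG2, SESN2 and TP53INP1 among the 8 that rose. BTG2, an antiproliferative gene, went from 64.7, 73.6 and 61.4 RPKM to 286, 269 and 249 RPKM, a rise of 2.002 ± 0.09, and DDB2, a repair gene, fell by 1.80 ± 0.12.

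Of the 14 tested BCL2 family genes, 9 rose and 1 fell, beside 36.7% and 27.8% of all genes. With spike-in scaling 5 rose and none fell, with GC correction 7 rose and 2 fell, and 2 fell without shCtrl replicate 3. The BH3-only genes, which promote apoptosis, had a median of 0.97 over 7 genes. BMF stood at 6.39, 6.71 and 6.53 RPKM in shCtrl and 21.0, 22.2 and 26.8 RPKM in shCycD1, and BIK rose by 2.04 ± 0.13. The apoptosis effector BAK1 fell by 0.51 ± 0.07, and the survival gene BCL2L1 had a log2 change of 0.85 ± 0.22. With spike-in scaling their changes were -0.63 and 0.73 and neither was called (adjusted p = 0.119 and 0.0735), and GC correction also ended the call of BCL2L1 (0.50, adjusted p = 0.0717).

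Genes of quiescence, FOXO activity and restraint of the kinase mTOR rose in 23 of 29 cases, beside 36.7% of all genes. Their median was 0.92, and 18 rose with spike-in scaling. PIK3IP1, an inhibitor of PI3 kinase, went from 1.56, 1.22 and 1.65 RPKM to 21.6, 21.0 and 26.6 RPKM, a rise of 3.57 ± 0.13. EIF4EBP3, a translation repressor, rose by 3.45 ± 0.19, and YPEL3, known for growth arrest, by 2.01 ± 0.12. DDIT4, which inhibits mTOR, went from 22.8, 18.0 and 15.2 RPKM to 152, 132 and 123 RPKM, a rise of 2.85 ± 0.15. GAS5, a noncoding RNA that accumulates in growth-arrested cells, went from 289, 330 and 281 RPKM to 977, 886 and 844 RPKM.

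MYC rose while the genes of division fell. It stood at 252, 135 and 173 RPKM in shCtrl and 533, 336 and 466 RPKM in shCycD1, wide groups that did not overlap, and its log2 change was 1.27 ± 0.25. The transcription factors that oppose MYC at the same partner, MAX, rose too: MXD4 from 5.51, 4.79 and 4.36 RPKM to 63.0, 54.9 and 58.1 RPKM, by 3.46 ± 0.10, and MXI1 by 1.35 ± 0.16. In the list of the MYC network, ribosome biogenesis and nucleolus, 10 of 62 genes were higher and 30 lower, beside 36.7% and 27.8% of all genes. The list's median was -0.21, and spike-in scaling left 3 higher and 9 lower. FBL, the nucleolar methyltransferase fibrillarin, fell from 182, 179 and 165 RPKM to 83.3, 88.3 and 76.9 RPKM. HSPE1, a mitochondrial chaperonin and MYC target, fell by 2.61 ± 0.11.

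Machinery of protein and RNA processing declined by smaller amounts. All but 3 of 31 proteasome subunits fell and none rose, beside 27.8% and 36.7% of all genes. Their median was -0.63, and 12 fell with spike-in scaling. PSMD1, a subunit of the regulatory particle, went from 102, 108 and 103 RPKM to 38.0, 46.3 and 45.9 RPKM. Of 47 splicing factors, 38 fell and none rose, with a median of -0.72, and 24 fell with spike-in scaling. SRSF1, a founding SR protein, went from 109, 135 and 119 RPKM to 31.2, 38.2 and 30.6 RPKM, and HNRNPA2B1 fell by 1.31 ± 0.08. Heat shock genes fell in 9 of 16 cases, with a median of -0.43, among them the HSP70 partners HSPH1, at -1.60 ± 0.17, and DNAJA1, at -1.53 ± 0.09.

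Ribosomes and mitochondria showed small changes whose number of calls differed widely between settings. Of the 77 cytoplasmic ribosomal protein genes, 34 were higher and 9 lower with a median of 0.18, against 36.7% and 27.8% of all genes; spike-in scaling left 1 higher and none lower, with a median of 0.06, and 27 higher and 13 lower with the replicate block added. RPL13A, at 459, 468 and 448 RPKM in shCtrl and 1042, 1062 and 914 RPKM in shCycD1, had the largest difference, 1.13 ± 0.08. Mitochondrial ribosomal proteins were lower in 38 of 76 cases and higher in 5, with a median of -0.24. Oxidative phosphorylation genes were lower in 36 of 76 and higher in 6, with a median of -0.25. With spike-in scaling alone, 10 mitochondrial ribosomal genes and 3 oxidative phosphorylation genes were lower and none higher. With the block added on that scale, 53 were lower and 7 higher in the first list and 51 and 6 in the second. Quantile normalization gave 25 oxidative phosphorylation genes lower and 16 higher. Many ribosomal protein genes have processed pseudogenes with near-identical sequence, so their reads can be split.

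Nucleotide and one-carbon enzymes fell in 26 of 34 cases (13 with spike-in scaling), beside 27.8% of all genes. DTYMK, thymidylate kinase, went from 74.1, 66.4 and 57.9 RPKM to 13.3, 15.4 and 11.4 RPKM, and fell by 2.27 ± 0.13, and MTHFD1, a folate enzyme, fell by 1.57 ± 0.08. Glycolysis was mixed, with 7 of 25 genes higher and 10 lower, and so were genes of the hypoxia response, with 6 of 14 higher and 4 lower. Over both, 13 of 39 rose and 14 fell, beside 36.7% and 27.8% of all genes, or 9 and 7 with spike-in scaling. LDHA, lactate dehydrogenase A, fell from 780, 799 and 754 RPKM to 288, 315 and 300.2 RPKM, and GAPDH fell by 0.99 ± 0.07, while ALDOC, an aldolase, rose by 1.80 ± 0.09. Cholesterol and fatty acid genes had 10 of 37 higher and 17 lower (3 and 8 with spike-in scaling), beside 36.7% and 27.8% of all genes. Both the fatty acid elongase ELOVL6, at -1.43 ± 0.12, and the sterol enzyme MSMO1, at -1.17 ± 0.09, fell. The mevalonate enzyme MVD rose by 1.10 ± 0.12, or by 0.55 with GC correction.

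Lysosomal genes moved the other way, with a median of 0.57. Among them 18 of 30 were higher and 3 lower, beside 36.7% and 27.8% of all genes. PSAP, the precursor of the saposins, went from 302, 318 and 292 RPKM to 845, 883 and 1058 RPKM, a rise of 1.60 ± 0.10. CTSA, TPP1, NPC2 and HEXA, a protease, a peptidase, a sterol carrier and a hexosaminidase subunit, rose by 1.53 to 1.69. ULK1, the kinase that starts autophagy, rose by 1.68 ± 0.08 (1.115 with GC correction), but the conjugation factor ATG5 fell by 1.004 ± 0.09. Over lysosome and autophagy together 27 of 47 rose, and 13 with spike-in scaling.

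The unfolded protein and amino acid stress list had 13 of 37 genes higher and 13 lower, beside 36.7% and 27.8% of all genes. With spike-in scaling 9 were higher and 2 lower. Amino acid stress genes were higher in 10 of 17 cases with a median of 0.64, and unfolded protein genes were lower in 9 of 20 with a median of -0.16, a difference between the arms that was not tested. DDIT3 (CHOP), a stress transcription factor, stood at 54.9, 32.5 and 37.8 RPKM in shCtrl and 103, 89.5 and 114 RPKM in shCycD1, a rise of 1.31 ± 0.19. CHAC1, a glutathione-degrading enzyme, was more variable, at 4.58, 1.44 and 1.54 RPKM and 12.5, 5.87 and 7.60 RPKM, with non-overlapping groups and a rise of 1.69 ± 0.41. Of 19 immediate early genes 11 rose and none fell. Over the immediate early and heat shock list of 42 genes 15 rose and 9 fell (9 and 6 with spike-in scaling). The share that rose was near the 36.7% of all genes, and the share that fell was below 27.8%. NR4A1, an orphan receptor induced by antigen receptor signals, rose from 14.7, 6.40 and 8.32 RPKM to 44.3, 29.3 and 29.3 RPKM. Aminoacyl-tRNA synthetases, which charge tRNAs, had 9 of 20 lower and 2 higher (2 and 0 with spike-in scaling), beside 27.8% and 36.7% of all genes. Their median was -0.10, which was 0.025 after quantile normalization, and FARSB fell by 0.98 ± 0.09.

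Genes of the type I interferon response had the highest median of the lists. Type I interferon signals through its receptor to a complex that includes STAT2 and IRF9 and binds interferon-stimulated response elements (ISRE) before antiviral genes. Of the 41 tested effector genes, 40 rose and 1, SP100, fell, beside 36.7% and 27.8% of all genes. Their median was 1.76. Among 22 sensors and factors 13 rose and 4 fell, with a median of 0.55. Without any 1 library, 52 to 54 of the 63 genes rose, and 44 rose with spike-in scaling. Among the 43 genes with a mean of 5 RPKM or more, 35 rose, with a median of 1.15.

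IFIT3, an antiviral protein of the IFIT family, stood at 1.37, 0.668 and 1.42 RPKM in shCtrl and 25.1, 25.2 and 32.4 RPKM in shCycD1, a rise of 4.11 ± 0.21 (adjusted p = 6.16e-06). MX1, an antiviral GTPase, was already present in the controls, at 11.3, 11.8 and 11.3 RPKM, and reached 105, 97.1 and 141 RPKM. In both genes the third shCycD1 library was the highest and all 3 were far above the controls. IFI27 and IFI6, small membrane proteins induced by interferon, rose by 3.84 ± 0.14 and 3.28 ± 0.17, and IFI44 and IFI44L by 3.35 ± 0.21 and 3.21 ± 0.23. IFI27, IFI44 and IFI44L were under 1 RPKM in every shCtrl library, so they entered the test through the shCycD1 group and their log2 changes depend on the pseudocount. OAS1, which makes the activator of RNase L, went from 8.16, 7.41 and 7.92 RPKM to 48.9, 63.0 and 59.2 RPKM, and ISG15, a ubiquitin-like modifier, from 38.5, 37.1 and 27.8 RPKM to 123, 125 and 142 RPKM.

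The factors that carry the interferon signal rose as well. STAT2 went from 11.8, 12.2 and 9.82 RPKM to 52.3, 53.2 and 45.2 RPKM, a rise of 2.11 ± 0.11. IRF9 rose by 2.45 ± 0.11 and IRF7 by 2.29 ± 0.13. Sensors of foreign nucleic acid divided: DDX58 (RIG-I), the RNA sensor, rose by 1.10 ± 0.15, whereas the DNA sensors MB21D1 (cGAS), IFI16 and AIM2 fell, with log2 changes of -1.40 ± 0.09, -0.75 ± 0.09 and -0.69 ± 0.22. With GC correction the change of IFI16 was -0.50 and kept its call. IFIH1, another RNA sensor, had a log2 change of 0.85 ± 0.32 and missed the threshold (adjusted p = 0.0507). The receptor subunit IFNAR2 was at 18.5 to 20.8 RPKM in shCtrl and 13.8 to 16.8 RPKM in shCycD1, a log2 change of -0.37 that was -0.49 and not called with spike-in scaling (adjusted p = 0.244). OAS1, ISG15, STAT2, the IRF genes and the sensors other than IFI16 were chosen as textbook members with their values known.

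The promoters of the 2 largest interferon rises, IFIT3 at chr10:89327747-89328046 (plus strand) and IFI27 at chr14:94110486-94110785 (plus strand), are shown from the same RefSeq table with the core of the ISRE (TTTC, any 2 bases and TTTC again, on either strand) in capitals.
IFIT3: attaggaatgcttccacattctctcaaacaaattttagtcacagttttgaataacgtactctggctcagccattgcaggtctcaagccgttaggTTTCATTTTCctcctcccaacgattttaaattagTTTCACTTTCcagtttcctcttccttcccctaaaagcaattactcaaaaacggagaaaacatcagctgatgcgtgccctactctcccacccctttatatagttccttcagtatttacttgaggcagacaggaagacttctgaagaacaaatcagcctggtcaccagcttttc
IFI27: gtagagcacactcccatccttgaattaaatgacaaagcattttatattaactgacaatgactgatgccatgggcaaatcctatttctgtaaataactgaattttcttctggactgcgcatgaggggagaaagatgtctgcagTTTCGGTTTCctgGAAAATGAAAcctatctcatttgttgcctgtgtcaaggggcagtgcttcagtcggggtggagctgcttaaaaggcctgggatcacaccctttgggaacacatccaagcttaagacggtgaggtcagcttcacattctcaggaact
Each window held 2 such matches. The motif was in 54.3% of the 46 promoters of the interferon list and in 2.9% of those of all tested genes. It was in 19.1% of the promoters of all genes that rose by 2 or more and in 2.2% of those with a change of -2 or lower, against 3.6% of all promoters in the table. A match does not show that a factor was bound.

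**Figure D4:**
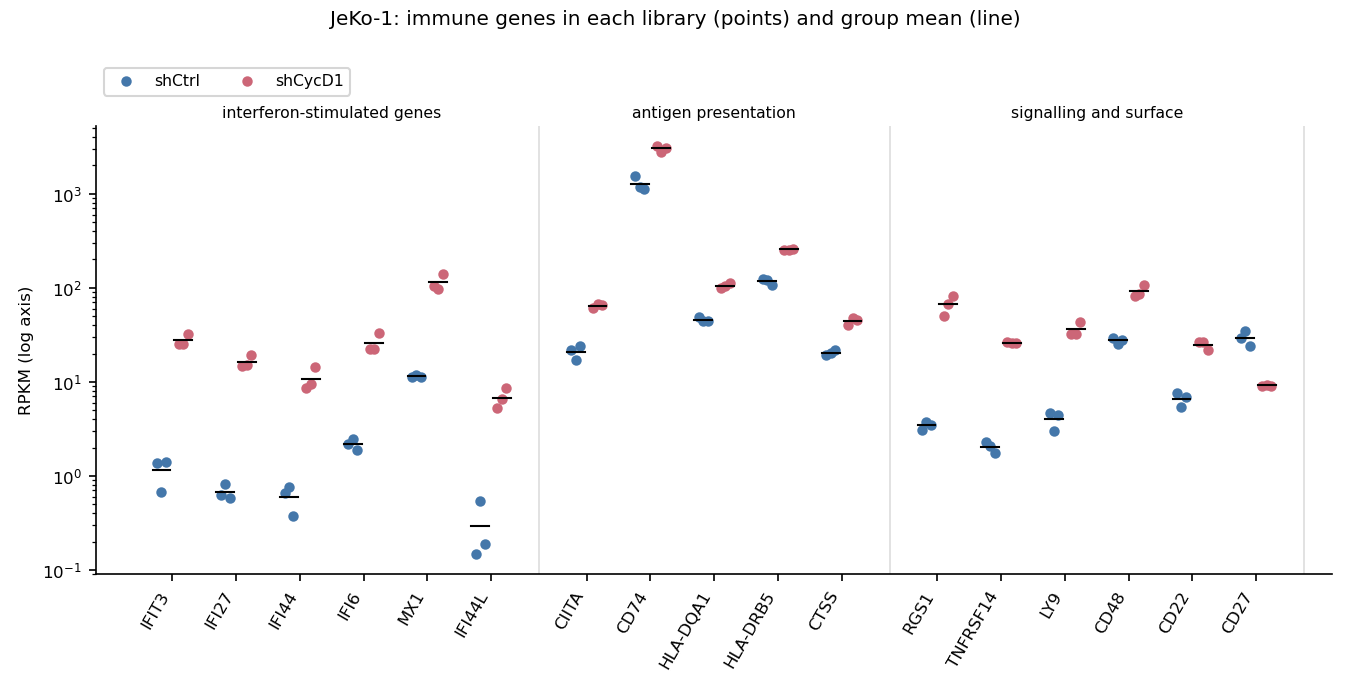
RPKM on a log axis (y) for interferon-stimulated, antigen presentation and surface genes in JeKo-1 (x); each point is a library, 3 per group, and the line is the group mean. IFIT3 lies at 0.668 to 1.42 RPKM in shCtrl and 25.1 to 32.4 RPKM in shCycD1, and CD27 is the gene shown that is lower in shCycD1.

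Antigen presentation genes rose in 27 of 35 cases, beside 36.7% of all genes. Their median was 0.84, and 17 rose with spike-in scaling. The median was 1.15 over 17 genes of class II and 0.39 over 18 of class I, a difference that was not tested. CIITA, the master activator of class II genes, went from 21.8, 17.03 and 24.2 RPKM to 60.9, 67.9 and 64.9 RPKM, a rise of 1.61 ± 0.13. CD74, the invariant chain, went from 1541, 1174 and 1115 RPKM to 3202, 2809 and 3086 RPKM, and HLA-DRA from 1383, 1329 and 1256 RPKM to 2286, 2270.2 and 2538 RPKM. B2M, the light chain of class I, was not called, at 1451 to 1643 RPKM and 1395 to 1549 RPKM. PDIA3, of the peptide loading complex, fell by 0.72 ± 0.07. In this list 19 symbols stand on several rows of the table, of which the highest was used, and HLA genes share sequence, so that their separate levels are uncertain. With those symbols left out, 9 of 16 rose and 3 fell, with a median of 0.38.

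Immune surface and signalling genes contained some of the largest single changes. RGS1, which dampens chemokine receptor signals in B cells, went from 3.10, 3.75 and 3.48 RPKM to 50.7, 67.3 and 81.3 RPKM, a rise of 4.06 ± 0.17. TNFRSF14 (HVEM), a regulator of lymphocyte activation, went from 2.29, 2.07 and 1.76 RPKM to 26.4, 26.1 and 25.6 RPKM, a rise of 3.39 ± 0.10. LY9, a SLAM family receptor, rose by 3.02 ± 0.18, TNFRSF1B, a TNF receptor, by 1.89 ± 0.14, and CD48 by 1.71 ± 0.12. Of the costimulation, TNF family and cytokine list 19 of 36 rose and 4 fell, beside 36.7% and 27.8% of all genes. Within it, 2 of 8 TNF family genes rose and 2 fell. Of the homing and adhesion list 18 of 31 rose and 5 fell (11 and 2 with spike-in scaling), beside the same shares of all genes. The homing receptor CCR7 rose by 1.07 ± 0.14.

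B-cell receptor signalling genes rose in 21 of 40 cases and fell in 8 (8 and 3 with spike-in scaling), beside 36.7% and 27.8% of all genes. The number that fell was 4 without shCtrl replicate 2 and 5 without any of the shCycD1 libraries in turn. CD22, an inhibitory co-receptor, went from 7.63, 5.45 and 6.86 RPKM to 26.5, 26.4 and 21.6 RPKM, a rise of 1.83 ± 0.14. CD81, a tetraspanin of the co-receptor complex, rose by 1.41 ± 0.12, the kinase BLK by 1.10 ± 0.12 and PIK3CD, the leukocyte PI3 kinase, by 1.11 ± 0.07. With GC correction the rises of CD81 and BLK were smaller, 0.81 and 0.67, and kept their calls. The regulatory subunit PIK3R1 fell by 0.75 ± 0.09 and the kinase PRKCB by 0.75 ± 0.09. The lowest log2 change of the list was -2.75, in a gene that the rule for naming left out. CD79A and CD79B, the signal chains of the receptor, had log2 changes of 0.61 ± 0.12 and 0.67 ± 0.12, which were not called with spike-in scaling (adjusted p = 0.329 and 0.272) or GC correction (adjusted p = 0.132 and 0.0601).

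The list of B-cell identity genes had 16 of 39 higher and 10 lower, with a median of -0.008, shares near the 36.7% and 27.8% of all genes. Spike-in scaling gave 7 and 6, and GC correction 15 in each direction. FCER2 (CD23) went from 0.797, 0.858 and 0.861 RPKM to 6.76, 6.57 and 4.81 RPKM, and so entered the test through the shCycD1 group, and TNFRSF13C, the receptor for the survival factor BAFF, rose by 1.97 ± 0.10. CD38 rose by 1.62 ± 0.12, and CD27, the memory B-cell marker, fell from 29.6, 34.8 and 24.1 RPKM to 9.01, 9.35 and 9.11 RPKM. SOX11, the transcription factor typical of mantle cell lymphoma, fell from 5.97, 6.24 and 6.74 RPKM to 4.26, 3.53 and 3.59 RPKM, by 0.67 ± 0.10. PAX5 and MS4A1 (CD20) were not called. NF-kappaB genes had 8 of 36 higher and 3 lower (4 and 4 with spike-in scaling), both smaller shares than over all genes, and 25 were not called. Their median was 0.41, and 0.06 after GC correction. The number higher ranged from 6 to 12 when single libraries were left out, and 7 were lower without shCtrl replicate 2. Plasma cell genes were evenly divided, 8 of 19 in each direction; 3 rose and 3 fell with spike-in scaling, and 3 rose and 7 fell among the 12 with a mean of 5 RPKM or more.

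In each library of this cultured line most markers of other cell types were under 1 RPKM, but some were well above it. CD247 stood at 25.25, 27.53 and 28.85 RPKM in shCtrl and 22.4, 24.12 and 22.9 RPKM in shCycD1, the largest part of the T and NK cell sum. ZAP70, of the same list, lay between 4.62 and 8.83 RPKM. TYROBP, of the myeloid list, stood at 19.9, 18.3 and 17.2 RPKM in shCtrl and 9.67, 8.78 and 10.5 RPKM in shCycD1. The summed RPKM of 17 T and NK cell markers was 46.7 to 48.6 in shCtrl and 34.2 to 35.0 in shCycD1, with 5 markers tested and CD3D, CD3E and CD2 under the minimum for testing. LCK, a kinase also found in some B-cell lymphomas, fell by 1.87 ± 0.13. The sum over 18 myeloid markers was 51.4 to 59.4 in shCtrl and 20.8 to 22.9 in shCycD1, with S100A8, S100A9, MPO and ELANE listed at 0. AIF1, at 33.5, 35.7 and 29.3 RPKM against 6.92, 7.92 and 7.17 RPKM, carried most of that difference. The sum over 19 epithelial, fibroblast and kidney markers was 7.28 to 7.68 and 9.06 to 9.79. The T cell and myeloid sums were thus lower in the group in which interferon and antigen presentation genes were higher; their part in those results was not tested.

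Outside the lists, APOD, a lipocalin that carries lipids, had the largest rise of the genes eligible to be named. It was at 0.327, 0.237 and 0.345 RPKM in shCtrl and 41.5, 39.7 and 62.2 RPKM in shCycD1, a rise of 5.88 ± 0.18. MYL4, a myosin light chain, went from 0.536, 0.659 and 0.524 RPKM to 10.9, 10.3 and 11.7 RPKM, and CTTN, the actin regulator cortactin, from 0.337, 0.246 and 0.286 RPKM to 7.95, 6.97 and 7.27 RPKM. The uncharacterized LOC100507254 rose by 3.45 ± 0.16. All 4 were under 1 RPKM in every shCtrl library, so that their log2 changes depend on the pseudocount.

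Comparison with Granta-519 asked which JeKo-1 changes ran against those of the other line. The change in each line was called in a separate fit of its 6 libraries, and the difference between the lines in a joint fit of all 12. Of 10653 genes tested in both, 319 (2.99%) were called in opposite directions with a called difference between the lines, 198 of them higher in JeKo-1 and lower in Granta-519. This split depends on the scale: with spike-in scaling, 12 of 249 were of that kind, and 48 genes were shared with the 319. The tables of the lines were normalized separately, so levels are not compared between them. The count ranged from 166 to 367 when single libraries were left out; it was 187 without Granta-519 shCtrl replicate 1, 166 without its shCycD1 replicate 1 and 205 without its shCycD1 replicate 3.

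Histone genes led the changes that were lower in JeKo-1 and higher in Granta-519, though histone levels are uncertain for the reasons given above. HIST1H1C, a linker histone, stood at 230, 238 and 241 RPKM in JeKo-1 shCtrl and 144, 146 and 119 RPKM in shCycD1, but at 199, 207 and 196 RPKM in Granta-519 shCtrl and 1511, 1301 and 1498 RPKM in shCycD1. The log2 changes were -0.80 ± 0.09 and 2.84 ± 0.08. HIST1H2BJ (-1.40 and 1.76) and HIST2H4B (-0.77 and 2.27) showed the same contrast. These 3 kept opposite calls with spike-in scaling.

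In the reverse direction, HBEGF, a growth factor of the EGF family, stood at 2.79, 0.918 and 1.48 RPKM in JeKo-1 shCtrl and 15.5, 9.30 and 7.55 RPKM in shCycD1. In Granta-519 it was at 19.9, 26.8 and 25.7 RPKM and 9.18, 14.3 and 13.8 RPKM. Its log2 changes were 2.36 ± 0.35 and -0.94 ± 0.19. TRIP6, a LIM-domain adaptor (2.71 and -0.50), BIK (2.04 and -0.63) and C3orf37 (2.06 and -0.27) followed. TRIP6 was under 1 RPKM in every JeKo-1 shCtrl library, so that its change there depends on the pseudocount. With spike-in scaling the changes of HBEGF, TRIP6, BIK and C3orf37 in Granta-519 were -0.22, 0.21, 0.10 and 0.47, none of them called, while the difference between lines kept its call for each.

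**Figure D5:**
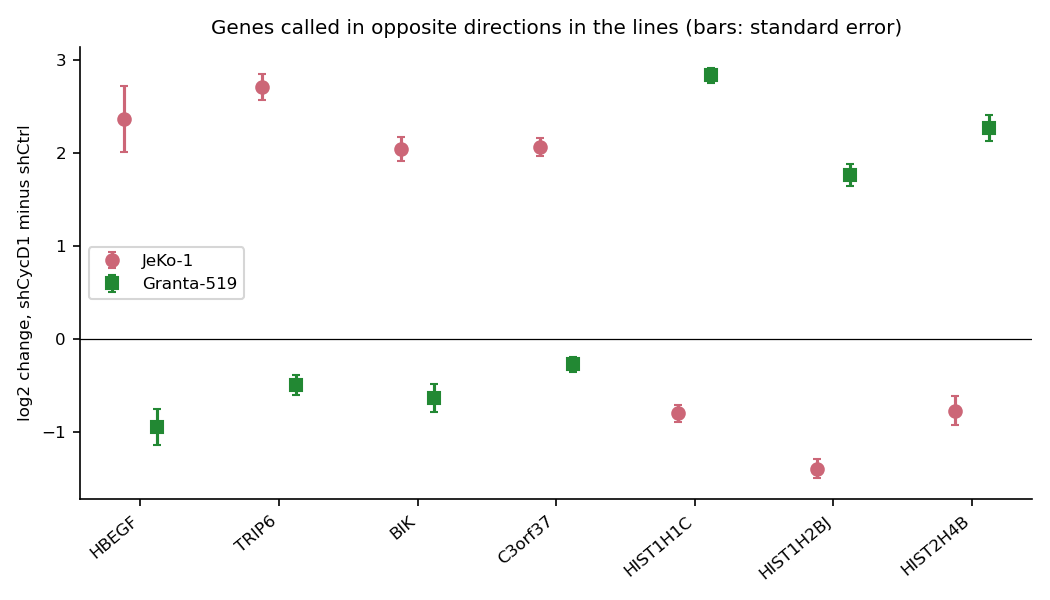
Log2 change (y axis, shCycD1 minus shCtrl) with its standard error in JeKo-1 (circles) and Granta-519 (squares) for the 7 genes named as called in opposite directions (x). HIST1H1C lies at -0.80 in JeKo-1 and 2.84 in Granta-519, and TRIP6 at 2.71 and -0.50.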

How the data were processed

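RNA of the JeKo-1 cells was sequenced from stranded mRNA libraries, per the labels' protocols. The authors deposited 1 table per line of RPKM values on a log scale, read here as ln(RPKM + 1). No header names the base: for JeKo-1 it was inferred from the values and is not settled, and a reading as log2 is among the alternatives. FastQC, TopHat2 2.1.1, limma 3.9 and the build GRCh37 (hg19) are named in the submitters' processing notes; the counting step is not given in the sources used here.

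From the 25370 rows, 92 ERCC rows were left out and the row with the highest mean was kept for each of the 554 symbols on several rows, which left 23615 symbols. Genes at 1 RPKM or more in at least 3 libraries were tested with limma 3.58.1 in R 4.3.3 on log2(RPKM + 0.5), with an intensity trend in the prior and Benjamini-Hochberg adjustment over all 11866 genes. The script was tested on simulated data. Standard errors are limma's, with n = 3 libraries per group. Depth is unknown, so no counting intervals are given; an exact permutation test of 3 against 3 cannot go below p = 0.1 and was not used.

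The gene lists (34) and the genes compared were chosen with earlier results of these data known, and support nothing by their direction. Named were 11 cell-cycle and lymphoma genes, up to 6 called members per list with the largest change and up to 2 against its majority, the 15 largest rises and falls and 8 genes opposite in the lines, at a mean of 5 RPKM or more in the higher group (except the 11), on 1 row, and no short RNAs; a few genes the rule selects are not reported here. POLD2, PCNA, MCM7, RBL2, E2F4, MDM2, HLA-DRA, B2M, PAX5, MS4A1, AIF1 and the added interferon genes were named with their values known, as were the interferon promoters. Promoters came from RefSeq on GRCh38.p14, matched by symbol, and no coordinates of the authors' build are used. The alternatives were other pseudocounts (0.1 and 1), filters, scalings, a GC correction, library weights, the replicate block and leaving out each library.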

Additional observations from a re-analysis of the deposited data

Results flagged for a closer look

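The effect of the hairpin differed between the lines for 7 named genes, by the test of the difference in a joint limma fit of the 12 libraries. The JeKo-1 change minus the Granta-519 change was 3.309 for HBEGF, 3.204 for TRIP6, 2.676 for BIK and 2.338 for C3orf37 on the log2 scale. It was -3.637 for HIST1H1C, -3.159 for HIST1H2BJ and -3.046 for HIST2H4B, histone genes whose levels are uncertain as stated above. All 3 shCycD1 libraries lay on the stated side of all 3 shCtrl libraries in both lines for these genes. The genes were picked by their calls in both lines, by a called difference and by its size. Neither the test of the difference nor this separation therefore adds support. Among all tested JeKo-1 genes, the groups did not overlap for 69.6%. The fall of C3orf37 in Granta-519 was not called when any of 5 of the 6 Granta-519 libraries was left out (adjusted p = 0.0545 to 0.122), and that of BIK was not called without Granta-519 shCycD1 replicate 1 (adjusted p = 0.053).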

How the results depend on the processing

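Counts of higher and lower JeKo-1 genes were within 1.5 times of 4357 and 3303 under the alternatives run, with these exceptions: 2874 were higher when a mean of 5 RPKM was required, which tests 8570 genes, and 1688 were higher and 1734 lower with spike-in scaling. Leaving out single libraries gave 3868 to 4206 higher and 2868 to 3228 lower. The spike-in factors spread from -0.339 to 0.454 on the log2 scale and ranked the libraries alike by number in both groups; spike-in scaling together with the replicate block, an alternative chosen after seeing the data, gave 4031 higher and 4418 lower. With the replicate block alone the counts were 4901 and 3806, and all 228 called named genes kept their calls. Libraries of the same number correlated at 0.187, 0.095 and 0.103 in their deviations from the group means, each higher than with the other numbers, which is a hint from the data and not from the design, so the samples were not treated as paired. GC correction, with 10887 genes, gave 3283 higher and 3476 lower. Read as log2, the table gave 3993 higher and 3161 lower of 11015 genes, and 426 and 486 at least doubled or halved.

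Of 228 named and tested genes called, 181 kept call and direction in every alternative that tested them; 44 lost the call with spike-in scaling, 14 with GC correction and 8 when some library was left out. MRPL41 and APRT changed sign with GC correction, to -0.163 and -0.028, and had the same values with the block and GC correction together; the cause was not tested. Genes called in opposite directions in the lines numbered 319, and 166 to 367 with single libraries left out, 293 with JeKo-1 read as log2 and 300 with the block. Small changes are limited by unknown depth.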
